A study of Homo sapiens with 6 samples.

Results

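The genes described here are 4 members of the CREB3 family, CREB3, CREB3L1, CREB3L2 and CREB3L4, taken by gene symbol from a table of 21512 genes. They were chosen by their family name and by earlier values of the same table: the level of CREB3L4 with androgen against vehicle, and the level of CREB3L1 in one cell line against the other. Those contrasts are therefore given for the 4 genes as a description, with no test. All 4 passed the minimum of 20 counts, averaged over libraries, and so were among the 13885 genes that were tested. The fifth human member, CREB3L3, is a liver and gut factor. It had 0 counts in 5 libraries and 1 count in the BicR library with bicalutamide, under the floor of 3 counts, and is not described further.

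CREB3 factors are basic leucine zipper transcription factors that are made as membrane proteins of the endoplasmic reticulum (ER). They travel to the Golgi, where the site-1 and site-2 proteases cut them, and the freed N-terminal part enters the nucleus. They are known for adjusting the secretory pathway, including coat proteins of ER-to-Golgi vesicles, to the load of secreted cargo. CREB3L4, also called AIbZIP, is known as an androgen-regulated gene of prostate epithelium. CREB3L1, also called OASIS, is known for collagen secretion in bone, and CREB3L2 for secretion in cartilage.

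The 6 RNA sequencing libraries came from 2 human prostate cancer cell lines under 3 treatments, with 1 library per combination. LNCaP is an established androgen-responsive line, and the second line is named BicR, whose derivation the labels do not state. Before treatment both lines spent 3 days without phenol red in 2.5% charcoal-treated serum, which is poor in steroids, so the ethanol libraries are also hormone-poor. Treatment lasted 24 h and was the vehicle ethanol, the androgen dihydrotestosterone (DHT) at 10 nM, or bicalutamide, which blocks the androgen receptor, at 1 µM.

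Total counts ran from 42162723 to 55917016 per library, and 16756 to 17062 genes had counts. Levels are given as CPM, the count relative to the TMM-scaled library size. No group had a replicate, and intervals on ratios of libraries are exact 95% intervals that cover counting error only, since reads without molecular identifiers are not independent molecules. KLK3, which encodes the androgen-induced prostate-specific antigen, stood at 1403, 5259 and 979 CPM in LNCaP with ethanol, DHT and bicalutamide, and at 672, 2601 and 630 CPM in BicR. All 12 listed luminal prostate markers had at least 1 RPKM in all 6 libraries. Endothelial markers reached it in 0 of 4, with a sum of 0.252 to 0.795 RPKM and CDH5 at 0 throughout. Immune markers reached it in 1 of 5, with a sum of 4.02 to 9.97 RPKM and PTPRC and MS4A1 at 0 throughout. Basal markers reached it in 1 to 2 of 6 (sum 8.16 to 13.5 RPKM) and neuroendocrine markers in 1 of 7 (sum 16.8 to 33.2 RPKM). In RNA from many cells, fewer cells with a transcript and less transcript per cell cannot be told apart. The library of LNCaP with ethanol stood apart in ER chaperone genes, as described with those genes, so the DHT ratios of the 4 members are given against bicalutamide as well. That base has a limit of its own in LNCaP. Over the tested genes, LNCaP with bicalutamide correlated at r = 0.986 with BicR ethanol and with BicR bicalutamide. Its r was 0.981 with LNCaP ethanol and with LNCaP DHT. The cause was not tested.

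Promoter sequence is shown because the members differed in their response to androgen. RefSeq windows of GRCh38.p14 were matched for 4 of 4 members, and the 250 bases before each start were searched on both strands. The stretches without an annotated exon are given 5′ to 3′ on the gene's strand, with a match in capitals. CREB3L4 lies at chr1:153968185-153968236 on the plus strand, where 198 of the 250 bases of the window are exonic. CREB3L2 lies at chr7:138002087-138002323 on the minus strand, and CREB3L1 at chr11:46294909-46295125 on the plus strand, at an annotated start inside the gene's span. The window of CREB3 is wholly exonic and is not shown.
CREB3L4: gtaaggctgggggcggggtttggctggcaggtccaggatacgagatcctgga
CREB3L2: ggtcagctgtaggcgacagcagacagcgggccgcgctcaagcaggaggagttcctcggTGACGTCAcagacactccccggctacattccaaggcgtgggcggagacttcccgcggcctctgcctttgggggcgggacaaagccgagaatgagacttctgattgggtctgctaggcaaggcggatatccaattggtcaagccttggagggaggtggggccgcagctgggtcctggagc
CREB3L1: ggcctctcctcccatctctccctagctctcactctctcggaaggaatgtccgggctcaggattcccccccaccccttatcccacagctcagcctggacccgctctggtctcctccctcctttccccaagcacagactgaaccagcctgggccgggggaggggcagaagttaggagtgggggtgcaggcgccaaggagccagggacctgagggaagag
The capitals in CREB3L2 mark a cAMP response element, TGACGTCA, the palindrome that CREB and ATF factors bind. It lies 179 to 172 bases before the start and holds 2 overlapping half-sites, TGACG, 1 on each strand. The full element was in 1.65% of 35116 such windows of all genes, and the half-site in 21.2%. CREB3 had a half-site on the reverse strand, 94 to 90 bases before its start. A second annotated start of CREB3L2 had an androgen receptor half-site, AGAACA, on the reverse strand at 42 to 37 bases before it, a match found in 12.4% of windows. The full androgen response element, AGAACA and TGTTCT with 3 bases between them (0.00285% of windows), was in no member's window. The same was true of the unfolded protein response element TGACGTGG (0.612%) and of 2 ER stress elements, CCAAT and CCACG with 9 bases between them (0.074%) and ATTGG and CCACG with 1 base between them (0.0513%). No match of any of the 7 motifs was in the CREB3L4 or CREB3L1 windows, which says only that these letters are not in these bases.

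Per transcript length, CREB3 was the most abundant member in 5 of 6 libraries, and CREB3L4 took that place in BicR with DHT. Only RPKM, the authors' length-scaled value, is used to compare genes. CREB3 stood at 54.6, 42.3 and 31.1 RPKM in LNCaP with ethanol, DHT and bicalutamide, and at 32.3, 32.0 and 36.5 RPKM in BicR. CREB3L4 stood at 19.8, 33.1 and 21.1 RPKM in LNCaP and at 25.3, 78.7 and 26.7 RPKM in BicR. CREB3L2 stayed between 16.9 and 28.7 RPKM in all 6 libraries. CREB3L1 was the lowest member throughout, at 0.421 to 0.885 RPKM in LNCaP and 0.0404 to 0.0524 RPKM in BicR. CREB3L2 and CREB3L4 lay close to each other in several libraries: 25.0 against 25.3 RPKM in BicR with ethanol and 25.5 against 26.7 RPKM in BicR with bicalutamide. With no replicates, the order of such neighbours was not resolved.

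**Figure D1:**
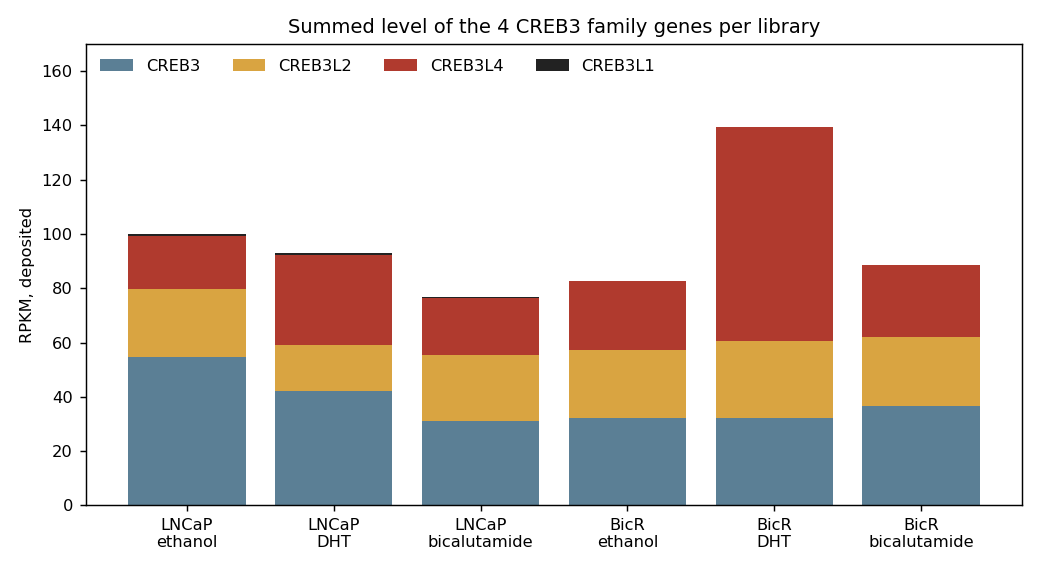
Stacked bars of deposited RPKM (vertical axis) for the 4 genes in each of the 6 libraries. BicR with DHT has the tallest bar, 139.5 RPKM, and CREB3L4 is its largest piece, while CREB3L1 is too small to see in the BicR bars.

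The makeup of the family differed among the libraries. The 4 genes added up to 100.1, 93.1 and 76.7 RPKM in LNCaP with ethanol, DHT and bicalutamide, and to 82.6, 139.5 and 88.7 RPKM in BicR. CREB3L4 made up 19.7%, 35.5% and 27.5% of the sum in LNCaP, and 30.6%, 56.4% and 30.1% in BicR. CREB3 made up 54.5% in LNCaP with ethanol and 23.0% in BicR with DHT, its highest and lowest shares. CREB3L1 stayed under 1% of the sum in all 6. Across the 6 libraries, CREB3L1 spanned 2.0 and CREB3L4 1.96 on the log2(CPM + 1) scale, and 2.26% and 2.43% of tested genes spanned more. CREB3 spanned 0.90 and CREB3L2 0.77, with 23.5% and 33.4% of tested genes spanning more.

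**Figure D2:**
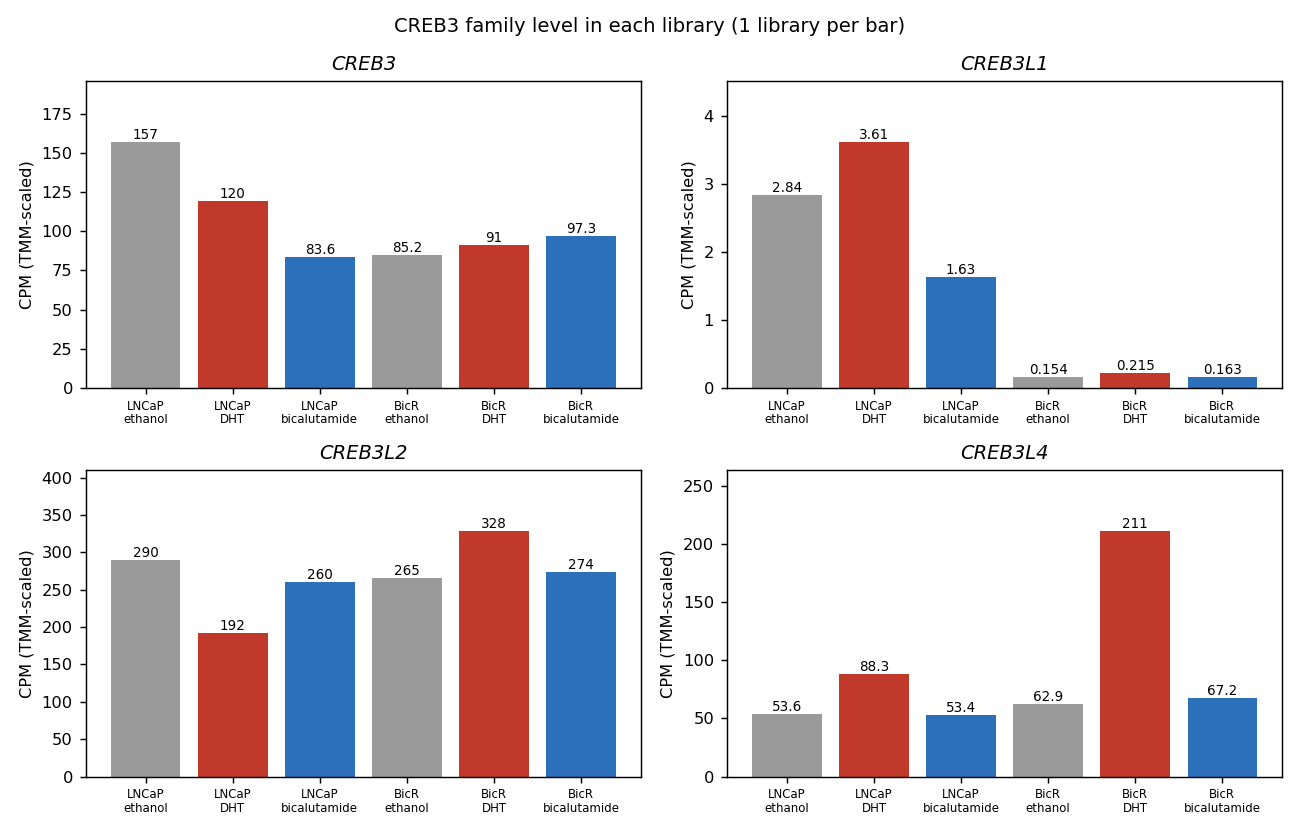
Bars give the level in CPM (vertical axis, from 0, a separate scale for each gene) of CREB3, CREB3L1, CREB3L2 and CREB3L4 in each of the 6 libraries. CREB3L4 is tallest in BicR with DHT (211 CPM), CREB3L1 is near 0 in the 3 BicR libraries (0.154 to 0.215 CPM), and CREB3 is tallest in LNCaP with ethanol (157 CPM).

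CREB3L4 was higher with DHT in both lines, and by more in BicR. In LNCaP it had 53.6 CPM with ethanol, 88.3 with DHT and 53.4 with bicalutamide (2680, 4794 and 2784 counts). In BicR it had 62.9, 211 and 67.2 CPM (3273, 8858 and 3302 counts). Both DHT libraries lay above all 4 libraries without DHT, which spread only from 53.4 to 67.2 CPM. The DHT to ethanol ratio was 1.65 (1.57 to 1.73) in LNCaP and 3.36 (3.23 to 3.50) in BicR. With bicalutamide as the base the ratios were 1.65 (1.58 to 1.73) and 3.14 (3.02 to 3.27), so the value did not rest on the ethanol libraries. On the log2(CPM + 1) scale the difference between DHT and ethanol was 0.71 in LNCaP, where 2.97% of tested genes were higher by more, and 1.73 in BicR, where 0.612% were. The BicR ratio was 2.04-fold the LNCaP ratio against ethanol and 1.90-fold against bicalutamide. That difference between the lines was not tested, as each rests on 1 library per condition.

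Among the 4 members, 0 differed by at least 2-fold between DHT and ethanol in LNCaP, where 2.59% of tested genes did. In BicR 1 did, CREB3L4, where 2.38% of tested genes did. Between DHT and bicalutamide the counts were again 0 and 1, against 2.47% and 2.46% of tested genes. In the model over both lines, the log2 fold change of CREB3L4 for DHT against ethanol was 1.26 (SE 0.27), and edgeR's quasi-likelihood test called 0.166% of all tested genes at an adjusted p of 0.05 (0.158% higher and 0.0072% lower). Since this contrast chose the gene, no p is given and the share is printed only as background. The value was 0.74 without the BicR DHT library and 1.72 without the LNCaP DHT library. The line contrast of CREB3L4, 0.61 (SE 0.22), dropped to 0.28 without either DHT library. The ratio of BicR to LNCaP was 2.39 (2.31 to 2.48) under DHT, 1.17 (1.11 to 1.23) under ethanol and 1.26 (1.20 to 1.32) under bicalutamide.

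CREB3L4 overlaps a neighbour at each end in RefSeq, SLC39A1, a zinc transporter gene, and JTB. Whether counting used strand is not given in the sources used here, so reads from the overlaps cannot be assigned to one gene. SLC39A1 had DHT to ethanol ratios of 1.22 in LNCaP and 1.16 in BicR, and DHT to bicalutamide ratios of 1.30 and 0.966. JTB had 0.889 and 1.32 against ethanol, and 1.42 and 1.27 against bicalutamide. The direction thus turned with the base for SLC39A1 in BicR and for JTB in LNCaP, and with either base both neighbours stayed below the CREB3L4 ratio of the same line.

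The 5 genes whose levels over the 6 libraries were most like those of CREB3L4, by Pearson's r of log2(CPM + 1) among 2495 tested genes that also spanned at least 1, were CHRNA2, ARSG, MAK, SNAI2 and MLPH (r of 0.998 to 0.995). Libraries and depth are shared by all of them, and with 6 points such values are a description. CHRNA2, a nicotinic receptor subunit gene, had 1.22, 9.10 and 0.863 CPM in LNCaP and 2.48, 104 and 2.58 CPM in BicR. MLPH, which encodes the vesicle transport adaptor melanophilin, had 78.6, 106 and 72.4 CPM in LNCaP and 78.8, 215 and 89.9 CPM in BicR. SNAI2, a zinc finger repressor gene, had 0.680, 2.17 and 0.307 CPM, and 0.807, 14.1 and 1.12 CPM. Each of these 3 was highest in BicR with DHT and second in LNCaP with DHT, as was CREB3L4, which follows from their choice by likeness.

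CREB3L1 was low in LNCaP and almost absent from BicR. LNCaP had 142 counts with ethanol, 196 with DHT and 85 with bicalutamide (2.84, 3.61 and 1.63 CPM). BicR had 8, 9 and 8 counts (0.154, 0.215 and 0.163 CPM), above the floor of 3 counts, 0.0576 to 0.0715 CPM in BicR, but close to it. The 2 lines did not overlap under any treatment, and how many of all tested genes separate this way was not counted. The LNCaP level was 18.5-fold the BicR level with ethanol (9.13 to 43.7), 16.8-fold with DHT (8.68 to 37.3) and 10.0-fold with bicalutamide (4.86 to 23.9).

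Among the 4 members, CREB3L1 alone was at least 2-fold lower in BicR under every treatment, where 0.447% of tested genes were, a pattern that the choice of the gene had used. By treatment, 1 member differed by at least 2-fold between the lines under ethanol (6.5% of tested genes, 3.88% lower in BicR), 2 under DHT (7.5%, 4.7% lower) and 1 under bicalutamide (1.95%, 1.27% lower). The second one under DHT was CREB3L4, higher in BicR. On the log2(CPM + 1) scale CREB3L1 was lower in BicR by -1.74, -1.92 and -1.18 with ethanol, DHT and bicalutamide, a scale that understates the change of low genes. The fitted log2 fold change, BicR against LNCaP, was -3.87 (SE 0.37) and ran from -3.70 to -4.12 as each library was left out. The test called 4.42% of all genes between the lines.

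Within LNCaP, CREB3L1 had a DHT to ethanol ratio of 1.27 (1.02 to 1.59) and a bicalutamide to ethanol ratio of 0.574 (0.433 to 0.756). DHT stood 2.22-fold above bicalutamide (1.71 to 2.89). In BicR the same ratios were 1.40 (0.478 to 4.16), 1.06 (0.347 to 3.24) and 1.32 (0.451 to 3.93). At 8 to 9 counts, a treatment difference of the LNCaP size was not detectable in BicR. The genes on either side, PHF21A and DGKZ, do not overlap CREB3L1 in RefSeq. Their ratio of BicR to LNCaP was 1.29 and 0.693 with ethanol, against 0.0541 (0.0229 to 0.109) for CREB3L1, and 1.03 and 0.985 with bicalutamide, against 0.0999 (0.0418 to 0.206). With DHT, PHF21A had 85.2 CPM in LNCaP and 96.2 CPM in BicR, and DGKZ had 40.5 and 27.2 CPM.

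The 5 genes most like CREB3L1 over the 6 libraries were ABHD1, SNCG, FAM195B, RHPN1 and PDZK1IP1 (r of 0.996 to 0.992), again as a description. SNCG, the gamma-synuclein gene, had 5.16, 5.27 and 2.95 CPM in LNCaP and 0.519, 0.334 and 0.427 CPM in BicR. ABHD1, an abhydrolase gene, had 3.46, 3.65 and 2.32 CPM, and 0.653, 0.739 and 0.794 CPM. Both were lower in all 3 BicR libraries than in any LNCaP library, and in LNCaP both were lowest with bicalutamide, as was CREB3L1. That too follows from their choice by likeness.

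CREB3L2 was abundant in both lines and was lowest in LNCaP with DHT. It had 290.1, 192 and 260.5 CPM in LNCaP with ethanol, DHT and bicalutamide (14503, 10441 and 13589 counts), and 265, 328 and 274 CPM in BicR (13804, 13771 and 13463 counts). The lowest and the highest library were thus the DHT libraries of the 2 lines. The DHT to ethanol ratio was 0.663 (0.646 to 0.680) in LNCaP and 1.24 (1.21 to 1.27) in BicR, and against bicalutamide 0.738 (0.720 to 0.758) and 1.20 (1.17 to 1.23). Under DHT, BicR stood 1.71-fold above LNCaP (1.66 to 1.75), while the ratio was 0.914 (0.893 to 0.935) with ethanol (1.05 when scaled by total counts) and 1.05 (1.03 to 1.08) with bicalutamide. The opposite directions leave a fitted DHT value of -0.13 (SE 0.25), which was -0.55 without the BicR DHT library and 0.26 without the LNCaP DHT library. RefSeq places an antisense gene, CREB3L2-AS1, within CREB3L2, and their reads cannot be told apart without strand.

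CREB3 was highest in LNCaP with ethanol and next highest in LNCaP with DHT. It had 157, 120 and 83.6 CPM in LNCaP with ethanol, DHT and bicalutamide (7839, 6491 and 4359 counts), and 85.2, 91.0 and 97.3 CPM in BicR (4435, 3815 and 4781 counts). The BicR libraries lay close together, with ratios to ethanol of 1.07 (1.02 to 1.12) under DHT, which was 0.991 from RPKM, and 1.14 (1.10 to 1.19) under bicalutamide. In LNCaP those ratios were 0.763 (0.738 to 0.788) and 0.533 (0.513 to 0.553). Because ethanol was the high library there, DHT was lower than ethanol yet 1.43-fold above bicalutamide (1.38 to 1.49), against 0.935 (0.896 to 0.976) in BicR. The BicR to LNCaP ratio was 0.543 (0.523 to 0.564) with ethanol, 0.761 (0.731 to 0.792) with DHT and 1.16 (1.12 to 1.21) with bicalutamide. The fitted line contrast, -0.35 (SE 0.21), was -0.09 without either ethanol library and -0.64 without either bicalutamide library. GBA2, which overlaps CREB3 in RefSeq, had ratios of 0.812 for DHT and 0.826 for bicalutamide over ethanol in LNCaP, and 0.983 for DHT over bicalutamide. Its BicR to LNCaP ratio was 0.666 with ethanol and 0.777 with bicalutamide. Reads from the overlap of GBA2 and CREB3 cannot be assigned without strand.

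**Figure D3:**
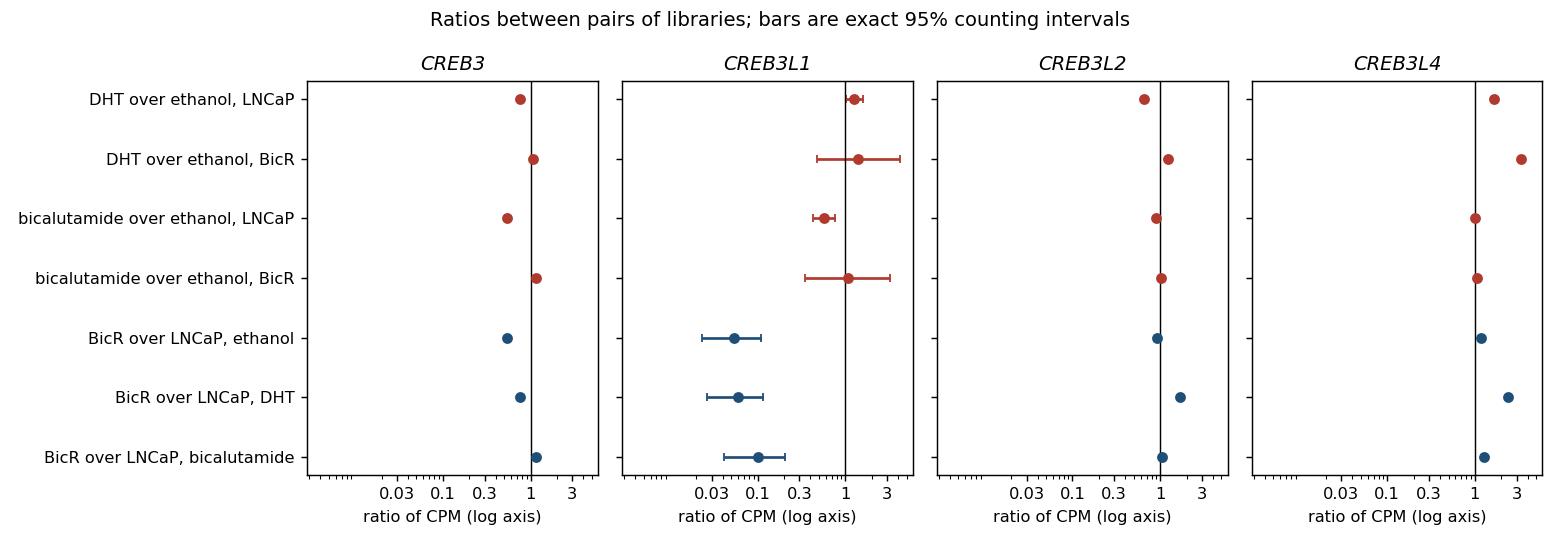
Points give the ratio of CPM between pairs of libraries (horizontal log axis) for each of the 4 genes, with exact 95% counting intervals as bars and a line at 1. CREB3L4 lies right of 1 for DHT in both lines, CREB3L1 lies far left for BicR over LNCaP, and CREB3L2 falls on opposite sides of 1 in the 2 lines for DHT over ethanol, as does CREB3, whose BicR ratio is 0.991 from RPKM.

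Bicalutamide against ethanol was the treatment contrast that the choice of members had not used, and no member passed the test there. The log2 fold change in the edgeR model was -0.35 (SE 0.26) for CREB3, -0.53 (SE 0.44) for CREB3L1, -0.06 (SE 0.25) for CREB3L2 and 0.04 (SE 0.26) for CREB3L4. All 4 had an adjusted p of 0.996 (edgeR's quasi-likelihood test, Benjamini-Hochberg). The background was 0% of 13885 genes called, with 52 genes up and 89 down when p was left unadjusted at the same threshold of 0.05, and DESeq2 and limma also called 0. Within a line, 0 of 4 members differed by 2-fold, against 2.6% of tested genes in LNCaP and 0% in BicR, whose ethanol and bicalutamide libraries correlated at r = 0.998 over the tested genes. CREB3L4 had ratios of 0.995 (0.944 to 1.05) in LNCaP, 1.11 when scaled by total counts, and 1.07 (1.02 to 1.12) in BicR. For CREB3L2 they were 0.898 (0.877 to 0.919), 1.00 by total counts, and 1.03 (1.01 to 1.06).

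The machinery that cuts CREB3 factors did not pass the test in any contrast. Of 10 listed genes for processing, partners and turnover, 9 were tested and 0 rose and 0 fell with DHT, with bicalutamide or between the lines. Of all tested genes 0.166%, 0% and 4.42% were called in these contrasts, so 0 of 9 lies near the share of all genes. MBTPS1, the site-1 protease gene, had 106, 74.1 and 86.0 CPM in LNCaP and 94.2, 99.9 and 93.3 CPM in BicR. MBTPS2, the site-2 protease gene, had 52.7, 47.9 and 62.9 CPM, and 62.0, 77.3 and 61.3 CPM. The values farthest from 0 belonged to INSIG2 and INSIG1, which hold sterol-sensing cargo in the ER. With DHT they were -0.52 (SE 0.19, adjusted p = 0.758) and 0.49 (SE 0.27), and between the lines -0.32 and 0.56. With bicalutamide the farthest were SYVN1, -0.48, and SEL1L, -0.47, partners in ER-associated degradation. The list's median was -0.01 for DHT, -0.09 for bicalutamide and 0.13 for the line, where all tested genes had 0.01, 0.01 and -0.00.

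Among the other membrane-bound factors and stress sensors, ATF6B fell in BicR and the rest did not pass. ATF6B encodes a relative of ATF6, which is also cut in the Golgi. It had 65.6, 47.6 and 47.0 CPM in LNCaP and 30.2, 29.2 and 31.2 CPM in BicR. The lines thus did not overlap, but the gene was taken for passing the line test. How many of all tested genes separate this way was not counted. The log2 fold change of ATF6B was -0.80 (SE 0.16, adjusted p = 0.033, edgeR). It missed the threshold in 5 of 6 fits that left out 1 library (adjusted p of 0.0504 to 0.14). The list's count was thus 0 rose and 1 fell of 9 tested between the lines, where 2.84% of all tested genes fell, and 0 and 0 in both treatment contrasts. ATF6 itself had a value of 0.10 between the lines, and XBP1, the spliced factor of the unfolded protein response, -0.04. Farthest from 0 were NFE2L1 (-0.34) and C11orf9 (-0.30) with DHT, and EIF2AK3 (-0.33) and NFE2L1 (-0.32) with bicalutamide. The nuclear CREB and ATF list had 0 rose and 0 fell of 14 in all 3 contrasts. Over all tested genes 0.166%, 0% and 4.42% were called for DHT, bicalutamide and the line. In the nuclear list ATF3 (-0.52) and ATF5 (-0.37) were farthest for DHT, ATF3 (-0.84) and ATF4 (-0.40) for bicalutamide, and EP300 (0.48) and ATF3 (-0.48) for the line.

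Genes of ER-to-Golgi transport, a known downstream pathway of the family, did not pass the test with DHT, with bicalutamide or between the lines. That holds for 16 tested COPII coat genes, 20 cargo receptor and SNARE genes, and 21 COPI and Golgi genes, each with 0 rose and 0 fell. Of all tested genes 0.166%, 0% and 4.42% were called in these contrasts, so for bicalutamide no list could hold a call. SEC23A, the inner COPII coat gene known as a target of CREB3 factors, had 127, 117 and 178 CPM in LNCaP and 172, 157 and 185 CPM in BicR. Its log2 fold change was -0.12 with DHT, 0.30 with bicalutamide and 0.31 between the lines (adjusted p = 0.279, edgeR). Within LNCaP the medians of the 3 lists for DHT over ethanol were -0.49, -0.36 and -0.40 on the log2(CPM + 1) scale, and within BicR 0.25, 0.38 and 0.28, where all tested genes had 0.01 and 0.00. Over bicalutamide they were -0.21, 0.04 and 0.11 in LNCaP and 0.22, 0.35 and 0.21 in BicR, so in LNCaP 2 of the 3 signs turned with the base. The model over both lines averages these, with list medians for DHT of -0.07, -0.05 and -0.06, -0.04, -0.19 and -0.20 for bicalutamide, and 0.06, -0.07 and -0.07 for the line. The COPII members farthest from 0 were SEC31B (0.66) and MIA3 (-0.32) for DHT, SEC13 (-0.59) and SEC24D (-0.48) for bicalutamide, and SEC31B (-0.69) and SEC16B (0.57) for the line. For cargo receptors they were TMED9 (-0.35) and ERGIC1 (0.34), TMED9 (-0.79) and LMAN2 (-0.61), and TMED3 (-0.82) and TMED9 (-0.68). For COPI and Golgi genes they were KDELR3 (-0.46) and COPA (-0.29), KDELR3 (-0.51) and COPE (-0.43), and COPE (-0.56) and ARF1 (-0.54).

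ER chaperone and degradation genes moved with the library of LNCaP with ethanol. HSPA5, the main ER chaperone gene, had 8598 CPM there, against 1348 and 1435 CPM in LNCaP with DHT and bicalutamide, and 1245, 1646 and 1275 CPM in BicR. Of 26 tested genes of the list, 17 were at least 2-fold lower with DHT than with ethanol in LNCaP, where 1.19% of all tested genes were (median difference -1.10), and 17 with bicalutamide (1.52% of all, median -1.21). With bicalutamide as the base, 0 were lower with DHT (0.893% of all) and 2 were higher (1.58% of all, median 0.14). In BicR 0 differed by 2-fold with DHT (median 0.46) or with bicalutamide (median 0.03). BicR with ethanol had 18 of them at least 2-fold lower than LNCaP with ethanol, where 3.88% of all tested genes were, and 0 under DHT (4.7% of all) or bicalutamide (1.27% of all). The edgeR test over both lines called 0 of 26 in either direction in all 3 contrasts. Of all tested genes it called 0.166% for DHT, 0% for bicalutamide and 4.42% for the line. Farthest from 0 for DHT were HSPA5 at -1.34 (SE 0.66, adjusted p = 0.956, edgeR) and DERL3 at -1.22. For bicalutamide the farthest were DERL3 (-1.84) and HSPA5 (-1.55), and for the line SDF2L1 (-1.26) and MANF (-0.93).

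The library with the highest ER chaperone level, LNCaP with ethanol, was also that of the highest CREB3, at 157 CPM, but CREB3L4 had 53.6 CPM there, next to its lowest. Relative to each gene's mean over the 6 libraries, the list's median on the log2(CPM + 1) scale was 0.95 in LNCaP with ethanol, -0.21 with DHT and -0.29 with bicalutamide. In BicR it was -0.39, 0.06 and -0.35, so the DHT library was the highest of that line, where CREB3L4 was also highest. In LNCaP with DHT, the second highest library of CREB3L4, the list's median lay below the genes' means, which include the high LNCaP ethanol library. At -0.21 it was still above LNCaP with bicalutamide (-0.29) and BicR with ethanol (-0.39) and bicalutamide (-0.35). HERPUD1, an ER-associated degradation gene, had 714, 296 and 249.8 CPM in LNCaP and 246, 449.6 and 267 CPM in BicR. SEC24D, a COPII cargo adaptor gene, had 146, 65.2 and 76.7 CPM, and 75.7, 137 and 84.1 CPM. Their DHT to ethanol ratios were 0.414 (0.406 to 0.422) and 0.447 (0.429 to 0.465) in LNCaP, and 1.83 (1.79 to 1.87) and 1.81 (1.74 to 1.89) in BicR. Over bicalutamide the DHT ratios were 1.18 (1.16 to 1.21) and 0.850 (0.812 to 0.890) in LNCaP, and 1.69 (1.65 to 1.73) and 1.63 (1.57 to 1.70) in BicR. The part of ER chaperone level in the values of CREB3 and CREB3L4 was not tested.

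**Figure D4:**
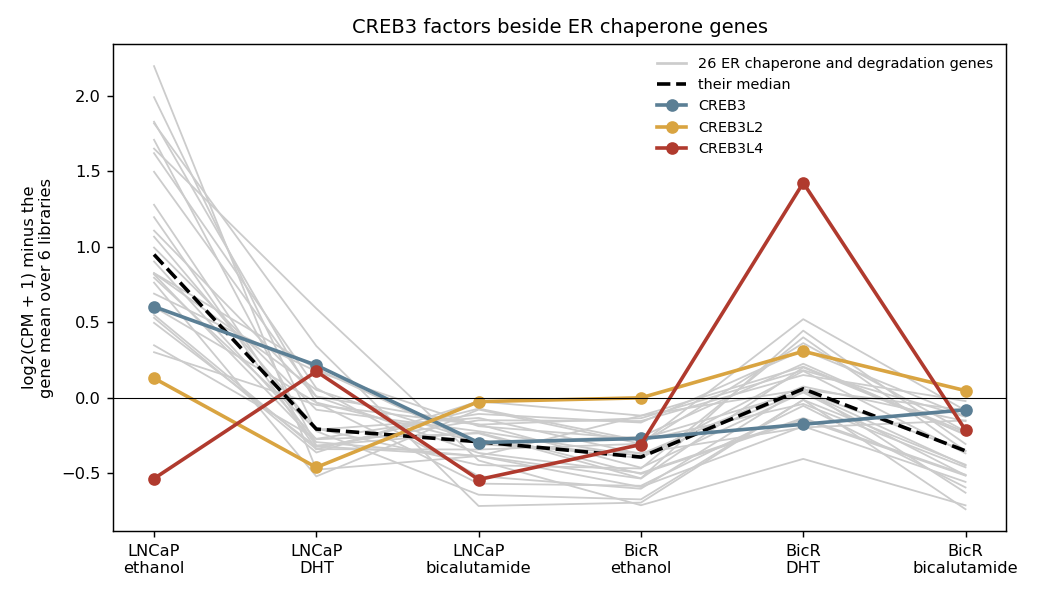
Lines give log2(CPM + 1) minus each gene's own mean over the 6 libraries (vertical axis) for 26 ER chaperone and degradation genes in grey, their median as a dashed line, and members of the CREB3 family in colour. The dashed median is highest in LNCaP with ethanol (0.95), where CREB3L4 is low, and next highest in BicR with DHT (0.06), where CREB3L4 peaks.

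A minority of collagen and matrix secretion genes fell in BicR. Of 22 listed genes 18 were tested, of which 0 rose, 6 fell and 12 did not pass between the lines (2.84% of all tested genes fell and 1.58% rose), with a list median of -0.38. The fitted log2 fold change was -2.70 (SE 0.34, adjusted p = 0.00539) for LOX, the collagen cross-linking enzyme gene, and -2.09 (SE 0.39, adjusted p = 0.027) for COL3A1. The fibrillar collagen genes COL5A1 and COL5A2 were at -1.56 (SE 0.18, adjusted p = 0.00393) and -1.18 (SE 0.26, adjusted p = 0.042). COL6A2 was at -0.98 (SE 0.21, adjusted p = 0.0411) and COL1A1 at -0.72 (SE 0.16, adjusted p = 0.042), all by edgeR's quasi-likelihood test. The choice of this list was made with the CREB3L1 result known.

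The levels behind these calls were as follows. COL5A1 had 58.9, 29.8 and 35.3 CPM in LNCaP and 17.5, 8.80 and 15.7 CPM in BicR. COL1A1, a bone collagen gene and a known OASIS target, had 45.0, 45.9 and 36.4 CPM, and 24.8, 25.5 and 26.6 CPM. LOX had 3.08, 3.00 and 2.70 CPM, and 0.365, 0.692 and 0.346 CPM. In each of the 3 genes, taken from those that passed the line test, all BicR libraries lay below all LNCaP libraries. The share of all tested genes that do so was not counted. LOX and COL3A1 were low in both lines, with COL3A1 at 1.30 to 2.04 CPM in LNCaP and 0.167 to 0.615 CPM in BicR.

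Members of the list that did not pass went both ways. COL12A1 had a line value of 1.71 (adjusted p = 0.0637, edgeR) and SERPINH1, the collagen chaperone gene, 0.37 (adjusted p = 0.183). SPARC was at -1.51 (adjusted p = 0.0764) and FN1 at -0.27 (adjusted p = 0.478). COL1A2, the partner chain of COL1A1, was at 0 counts in all 6 libraries. With DHT and with bicalutamide 0 of 18 rose or fell, where 0.166% and 0% of all tested genes did. Farthest from 0 were P4HA3 (-1.48, adjusted p = 0.683, edgeR) and COL5A1 (-0.99, adjusted p = 0.279) for DHT, and P4HA2 (-0.87) and COL3A1 (-0.63) for bicalutamide. Markers of mesenchymal cells, which make most collagen in tissue, reached 1 RPKM in 3 of 10 genes. Their summed level was 13.7 to 18.5 RPKM in LNCaP and 13.6 to 22.2 RPKM in BicR, and VIM, the vimentin gene, was the largest piece, at 7.09 to 9.57 and 9.56 to 17.5 RPKM. Without VIM the sum was 6.59 to 8.88 RPKM in LNCaP and 4.01 to 5.26 RPKM in BicR. The largest piece of that rest was COL1A1, at 4.23 to 5.07 and 2.81 to 3.11 RPKM, so it largely repeats a gene of the collagen list. PDGFRB ranged from 0.0541 to 0.135 RPKM in LNCaP and from 0.128 to 0.188 RPKM in BicR. All BicR libraries lay below all LNCaP libraries in 4 of the 10 markers and above them in 0. The 4 were COL1A1 and COL3A1, which are also in the collagen list, ACTA2 (1.61 to 3.10 against 1.01 to 1.59 RPKM) and THY1 (0.261 to 0.403 against 0.0194 to 0.159 RPKM). How many of all tested genes separate this way was not counted, so the 4 are a description only. The part of these markers in the collagen values was not tested. The count of 6 was 0 without either one of the bicalutamide libraries and 3 without either one of the ethanol libraries.

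**Figure D5:**
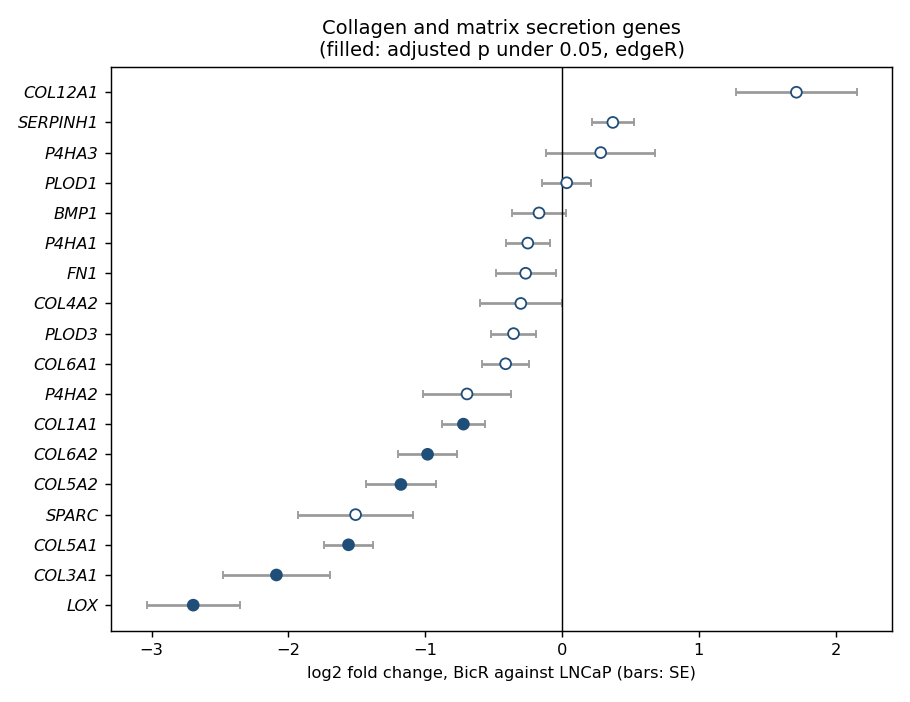
Points give the fitted log2 fold change of BicR against LNCaP (horizontal axis) with its SE for 18 tested collagen and matrix secretion genes, filled where the adjusted p was under 0.05. The 6 filled points lie left of 0, from LOX at -2.70 to COL1A1 at -0.72, while COL12A1 lies right of 0, unfilled, at 1.71.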

How the data were processed

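For each of the 6 libraries the authors deposited unnormalised counts by gene symbol beside RPKM, per the file headers. Total RNA (ISOGEN) was read on a SOLiD 3 Plus instrument, per the labels' protocols, and hg19 was the build, per the submitters' processing notes. The aligner, counter, annotation and use of strand were not stated in those labels.

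The 4 members and the gene lists were chosen with earlier results of these data known. A minimum of 20 counts, averaged over libraries, left 13885 of 21512 genes. TMM factors and an additive model of line and treatment came from edgeR 4.0.16 under R 4.3.3, by the quasi-likelihood test (2-sided, Benjamini-Hochberg, threshold 0.05). It left 2 residual and gave 6.8 prior degrees of freedom. The labels name no further cultures, and each line and treatment has 1 library. The error of the model is thus the departure of the 2 lines from a shared treatment response. A p-value does not measure the spread among cultures by itself, and a response that differs between the lines enters the error. The script was tested on simulated counts. Within a line, differences of log2(CPM + 1) were counted at 2-fold, with no test. Genes named are the members, the listed genes that passed or, in a list with none, the 2 farthest from 0, the 5 genes most like a member that spanned at least 1, and HSPA5, KLK3, COL1A1 and SEC23A. Outside this rule, MBTPS1, MBTPS2, ATF6, XBP1, COL12A1, SERPINH1, SPARC, FN1, COL1A2, HERPUD1, SEC24D, single markers and the genes beside each member were named with their values known. Alternatives were DESeq2 1.42.0, its size factors, total counts, other filters and pseudocounts, limma 3.58.1 on log2(RPKM + 1) and leaving out each library. Promoter windows came from RefSeq, GRCh38.p14, and no coordinates were converted.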

Additional observations from a re-analysis of the deposited data

Results flagged for a closer look

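Several genes lay on opposite sides of 1 in the 2 lines for the same ratio. None of these differences was tested, since each ratio rests on 1 library per condition, and the comparisons of a line share libraries. CREB3 had DHT to ethanol ratios of 0.763 in LNCaP and 1.07 in BicR, bicalutamide to ethanol ratios of 0.533 and 1.14, and DHT to bicalutamide ratios of 1.43 and 0.935. CREB3L2 had 0.663 and 1.24, 0.898 and 1.03, and 0.738 and 1.20 for the same 3 pairs of ratios. HSPA5 had 0.157 and 1.32, 0.167 and 1.02, and 0.939 and 1.29. SEC24D had 0.447 and 1.81, 0.526 and 1.11, and 0.850 and 1.63. HERPUD1 had 0.414 and 1.83 for DHT over ethanol and 0.350 and 1.08 for bicalutamide over ethanol. With other scalings 2 of the members' differences vanish: CREB3 in BicR with DHT over ethanol was 0.991 from RPKM, so both lines lay below 1, and CREB3L2 in LNCaP with bicalutamide over ethanol was 1.00 with total counts. In CREB3L2, HSPA5 and SEC24D the DHT ratio was below 1 in LNCaP and above 1 in BicR, whether ethanol or bicalutamide was the base. CREB3 in LNCaP turned with the base, while HERPUD1 was higher with DHT than with bicalutamide in both lines.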

How the results depend on the processing

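No paired analysis was possible because the labels give no replicate numbers and each line and treatment has 1 library. Cell line is already a term of the model. Genes called for DHT numbered 23, against 99 with DESeq2, 77 with no filter, 15 at a minimum of 100 counts, 15 with limma on RPKM, and 0 to 273 as each library was left out (0 without either bicalutamide library, 12 without the BicR DHT library). For bicalutamide 0 were called, and 0 to 197 on leaving out a library, with 197 without the BicR ethanol library. Between the lines 614 were called, against 1490 with DESeq2, 1360 with no filter and 365 at 100 counts, and 0 to 694 on leaving out a library (0 without either bicalutamide library). Collagen genes lower in BicR numbered 6, against 2 at 100 counts, 4 with limma and 0 to 4 on leaving out a library. The minimum of 100 counts drops CREB3L1. CREB3L1 reached 2-fold between DHT and bicalutamide in LNCaP with a pseudocount of 0.1, which made 1 member against 0. With a pseudocount of 5, or log2(RPKM + 1), the members 2-fold apart between the lines were 0 under ethanol, 1 under DHT and 0 under bicalutamide, against 1, 2 and 1. The 17 ER chaperone genes lower in LNCaP with DHT became 0 with bicalutamide in place of ethanol. By CPM, not per length, CREB3 was highest in 0 libraries against 5. For bicalutamide against ethanol, leaving out a library moved CREB3 between -0.79 and 0.065 (also 0.05 without the LNCaP ethanol library), CREB3L1 between -0.78 and 0.037, CREB3L2 between -0.32 and 0.23 (also 0.05 without the BicR bicalutamide library) and CREB3L4 between -0.22 and 0.35 (also -0.18 without the LNCaP bicalutamide library). The cause of these shifts was not tested. Other scalings moved the members' ratios by at most 1.15-fold. Ratios near 1 changed sides: CREB3 in BicR with DHT over ethanol (0.991 from RPKM), CREB3L2 and CREB3L4 in LNCaP with bicalutamide over ethanol (1.00 and 1.11 with total counts; CREB3L4 1.07 from RPKM) and CREB3L2 in BicR over LNCaP with ethanol (1.05 with total counts). Counting error limits CREB3L1 in BicR, at 8 to 9 counts.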
